A study of Sus scrofa with 19 samples.

Results

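The genes described here are the pre-mRNA splicing regulators of 3 symbol families: the SR proteins (SRSF), the heterogeneous nuclear ribonucleoproteins (HNRNP) and the RNA-binding motif proteins (RBM followed by a number). They were chosen by symbol alone, in the table of genes that the authors deposited, and followed by Ensembl identifier into the counts. This gave 60 genes of 25879, of which 10 belonged to the SR, 19 to the hnRNP and 31 to the RBM family. The 60 genes carry 59 symbols, because 2 gene models are both named RBM23. Other genes with close copies, such as RBM4 with RBM4B and HNRNPH1 with HNRNPH2, may also share reads, and the treatment of reads with several matches is not given in the sources used here. RBM44, with at most 8 counts in any library, fell below the filter on low counts, and the other 59 genes were tested. RBM20, a splicing factor of titin in heart muscle, has no symbol in the table of the authors and is therefore no member. It was followed beside them under its reference name.

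SR proteins bind exonic enhancers and help U1 and U2 snRNPs to recognise splice sites, while hnRNPs coat nascent transcripts and often act as silencers. The RBM symbol covers a wider range of functions, among them spliceosome components, adaptors of the nuclear RNA exosome, subunits of the m6A writer and tissue-restricted regulators. In the heart, such proteins set the isoforms of sarcomere, ion channel and calcium handling genes.

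RNA was sequenced from left ventricular (LV) myocardium of 19 female large white pigs, with 1 library per pig. Doxorubicin (DOX, n = 5) and liposomal doxorubicin, Myocet (MYO, n = 5), were given in 3 cycles of 60 mg/m2, and the anterior wall was sampled after 3 months, when the experiment was stopped early because the animals were in poor health. The RemoLV group (n = 3) had a 90 min balloon occlusion of the left anterior descending artery with reperfusion, and the posterior wall, remote from the infarct, was sampled at 6 months. In the Hyper group (n = 3), a stent of fixed width in the descending aorta of growing pigs produced an isthmus stenosis, with the anterior wall sampled at 6 months. The Control pigs (n = 3, anterior wall, 6 months) are sham-operated according to the sample descriptions and untreated according to the methods of the study.

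Before any comparison, several facts about the libraries have to be stated. The totals ranged from 9527710 to 20370209 counts. The names of the count files, used here as group labels, disagreed with the column names of the authors' expression table for 8 of the 19 libraries: the 3 libraries labelled RemoLV are named Control in the table and the reverse, and DOX replicate 5 and MYO replicate 1 change places. The column names of the table were run as an alternative, called table names. The 6 libraries labelled Hyper and Control stay together under both namings, but the table calls them Hyper and RemoLV, and places its Control among the other 13. The libraries labelled RemoLV had 18.6 to 115 CPM (counts scaled by the TMM method to a common library total) of the ventricular light chain MYL2, against at least 8975 CPM in every other library. Their atrial light chain MYL4 was 6029 to 8130 CPM, against at most 21.9 CPM elsewhere, so these libraries go against the labelled ventricle. DDX3Y, a Y-linked gene, was at 96.1 to 177 CPM in every library of the drug groups and at no more than 0.137 CPM in the rest, although all pigs are labelled female. The deposited library numbers fall into 3 separate stretches, for DOX with MYO, for RemoLV, and for Hyper with Control. Whether a stretch was prepared or sequenced together is not given in the sources used here, and stretch and treatment cannot be told apart except within DOX with MYO and within Hyper with Control. The study took its anthracycline data from an earlier publication, and describes RNA extraction and library protocols as compatible between its groups. Follow-up time was likewise shared by treatment group.

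Expression levels of the families were compared first per length, as CPM per kb of annotated exon in the Control libraries. HNRNPA2B1, which packages nascent RNA, was the most abundant member at 249 CPM per kb, followed by its relative HNRNPA1 at 108, HNRNPH1, a binder of G-rich elements, at 88.1 and SRSF6 at 85.7. The rank of SRSF6 rests on an annotated exon length of 1038 bases. Without division by length its Control mean, 88.9 CPM, was below those of SRSF1 (185 CPM) and SRSF5 (181 CPM). The lengths are those of RefSeq, while the counts were assigned to Ensembl genes. HNRNPU, at a mean of 325.6 CPM in Control, had no exon length here and was not ranked. The lowest levels were those of RBM44, below the filter, at 0.0201 CPM per kb, SRSF12 at 0.0941 and RBM47 at 0.102. Summed over the tested members of a family, the level overlapped between the 6 Hyper and Control libraries and the 13 others. The SR sum was 785 to 995 CPM in the 13 DOX, MYO and RemoLV libraries and 821 to 975 CPM in the 6 Hyper and Control libraries. The hnRNP sum was 3085 to 4248 CPM in the former and 3300 to 4154 CPM in the latter. The RBM sum was 1146 to 1447 CPM against 1200 to 1400 CPM. By group, the Control libraries stood above some of the others: the hnRNP sum was 3789 to 4154 CPM in Control, 3364 to 3574 CPM in MYO and 3085 to 3436 CPM in RemoLV. The RBM sum was 1343 to 1392 CPM in Control, 1166 to 1260 CPM in MYO and 1198 to 1249 CPM in RemoLV. Control overlapped DOX and Hyper in both sums, which rest on TMM scaling and were not tested.

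The first comparison set Hyper and Control against DOX, MYO and RemoLV, a partition of libraries that both namings keep. With table names it would read Hyper and RemoLV against DOX, MYO and Control, so that the side the controls are on is not settled, and group names below are those of the count files. The difference was tested as the mean of the former group effects minus the mean of the latter. In this comparison 26 of the 59 members (44.1%) passed the edgeR quasi-likelihood test at an adjusted p of at most 0.05, 20 of them higher and 6 lower in Hyper and Control. Over all 13552 genes tested, 52.8% passed, 26.2% higher and 26.5% lower, so the members passed no more often than genes in general. The median absolute log2 fold change was 0.219 for the members and 0.369 for all genes. RBM26 and RBM38 were the members that passed with a log2 fold change of 1 or more in size, as 10.5% of all genes did.

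By family, 3 of 10 SR genes passed (1 higher, 2 lower), 7 of 19 hnRNP genes (6 higher, 1 lower) and 16 of 30 RBM genes (13 higher, 3 lower). The direction depended on the scaling. The genes coded on mitochondrial DNA took up 18.6 to 28.8% of the counts in Hyper and Control and 12.7 to 21.2% in the other libraries. With scaling to the library total alone, which leaves this share in, the median of all genes moved by -0.364 and the split of the members became 5 higher and 29 lower, where 7.7% of all genes were higher and 50.8% lower. All 6 members called lower kept their sign, which a downward shift could not turn. Of the 20 called higher, 10 kept their sign under each of the 4 scalings tried, and the other 10, HNRNPA1, HNRNPA3, HNRNPC, HNRNPD, HNRNPH2, HNRNPH3, RBM7, RBM28, RBM39 and 1 RBM23 gene model, turned below 0 with the library total. That scaling shifts genes in general, and the turns are to be read against the shift. The part of the mitochondrial share in the shift was not tested.

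Markers of cell types moved with this comparison as well. Summed over 8 fibroblast genes, the 6 libraries had 1611 to 3993 CPM and the 13 had 4706 to 12650 CPM, without overlap, and 5 of the 8 genes were called lower in the 6. All 5 proliferation genes were called lower (8.13 to 16.4 CPM summed, against 8.38 to 49.9 CPM), as were 5 of the 6 atrial cardiomyocyte genes tested. Summed over the 7 atrial genes counted, the levels were 125 to 1277 CPM and 780.5 to 12830 CPM, with BMP10 at 0 in all 6 libraries and in all 5 of DOX. All 5 ventricular cardiomyocyte genes were called higher (50050 to 74540 CPM against 25020 to 59470 CPM). Of all genes tested, 26.2% were higher and 26.5% lower. The lowest ventricular sums were those of RemoLV (25020 to 29130 CPM), while DOX (51170 to 54360 CPM) and MYO (44970 to 59470 CPM) overlapped the 6 libraries. The highest atrial sums were also those of RemoLV (9575 to 12830 CPM), with at most 2445 CPM in DOX and 1275 CPM in MYO. The part of these markers in the member values was not tested. In bulk tissue, fewer cells of a type and less RNA per cell cannot be told apart.

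**Figure D1:**
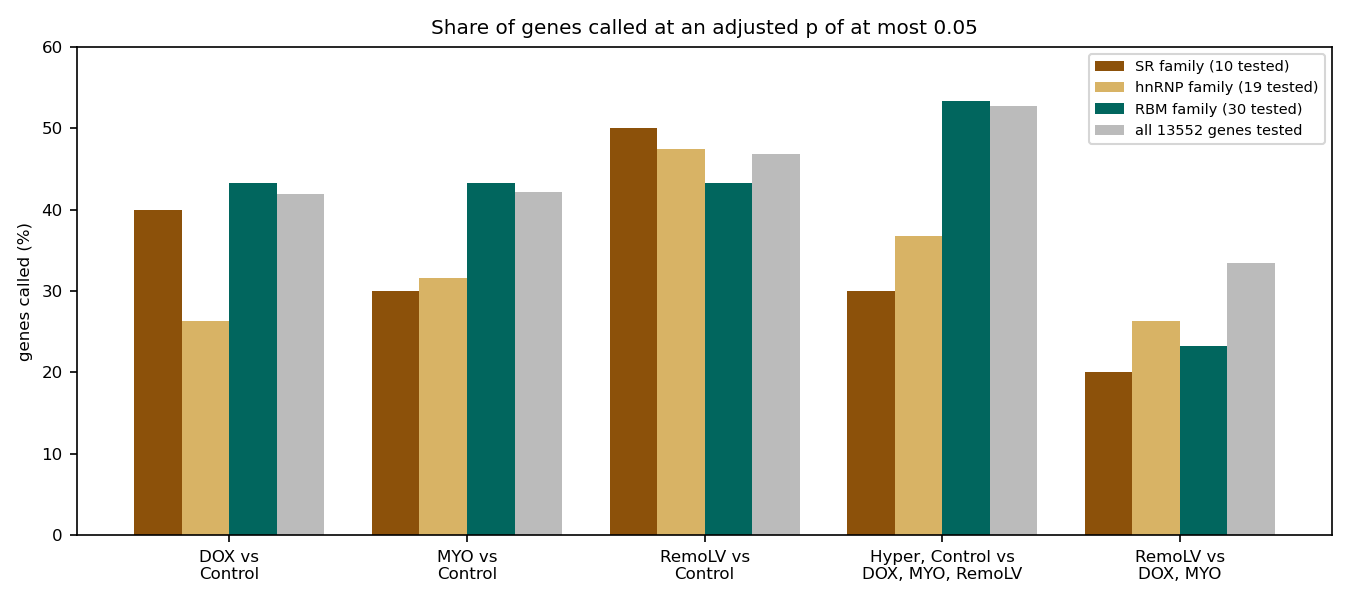
Share of genes called (y axis, %) in 5 comparisons (x axis), with a bar for each family and a grey bar for all 13552 genes tested. In Hyper and Control against the rest, the RBM bar (53.3%) stands next to that of all genes (52.8%), and the hnRNP (36.8%) and SR (30.0%) bars are below it.

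**Figure D2:**
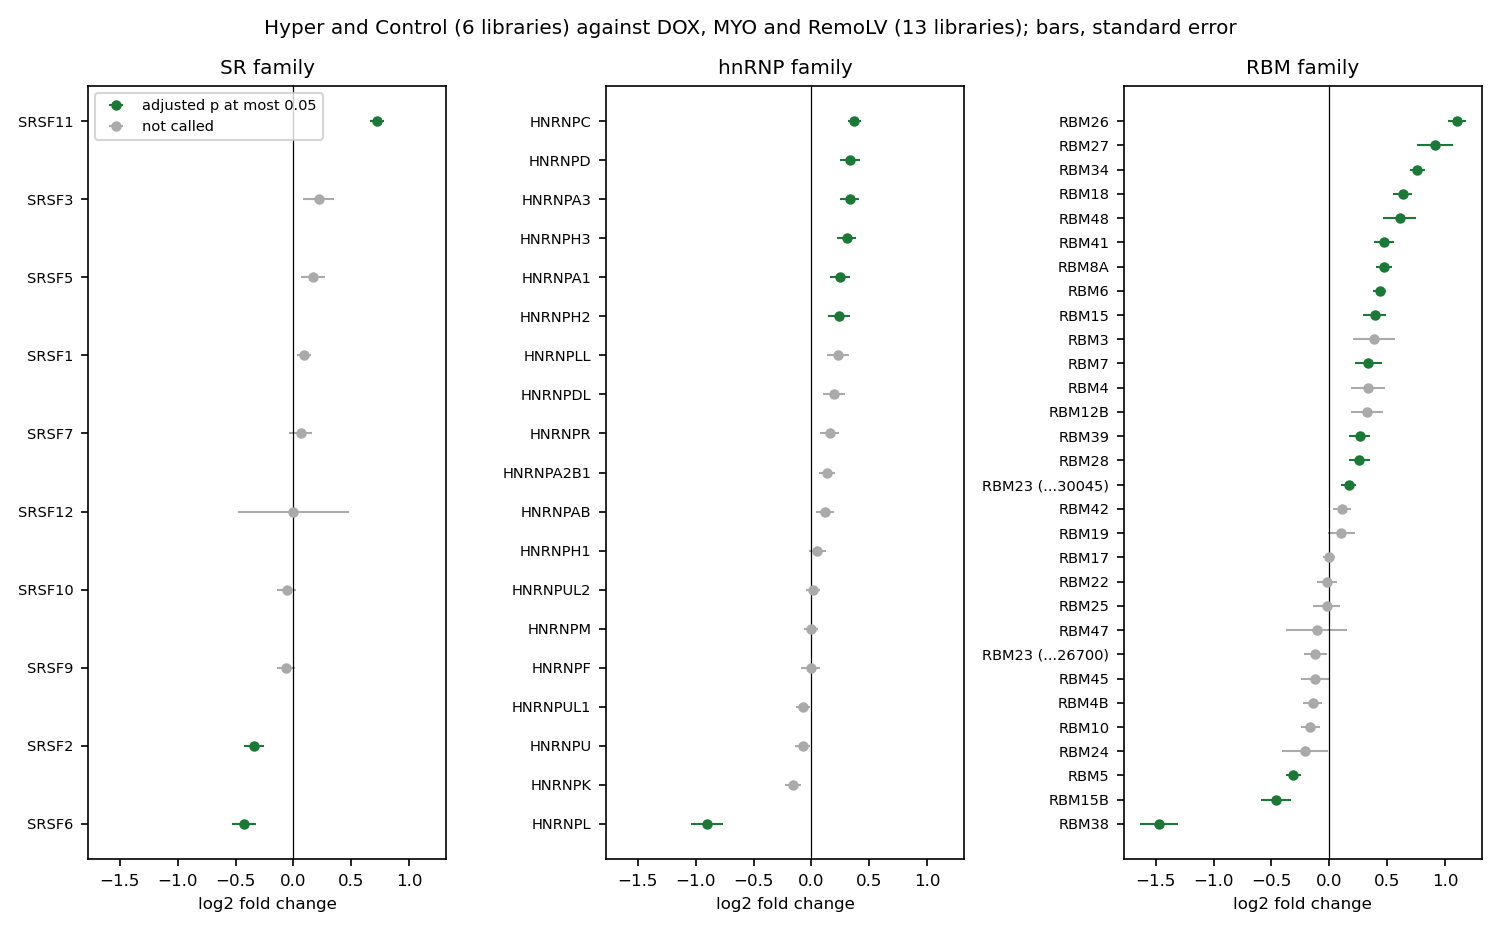
Log2 fold change (x axis) of each tested member in Hyper and Control against DOX, MYO and RemoLV, by family, with bars for the standard error and green for members called. RBM26 at 1.10 and RBM38 at -1.47 are the extremes. The values rest on TMM scaling, and 10 of the 20 members called higher turn sign with scaling to the library total.

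RBM38 and SRSF6, higher in the 13 libraries, and SRSF11 and RBM34, higher in the 6, are the members whose upstream sequences are shown, as a pair for each direction. Each is the window of 250 bases before the start annotated by RefSeq on Sscrofa11.1, the build of the counts, written 5′ to 3′ on the strand of the gene. RBM38 lies at chr17:57783156-57802495 on the plus strand (window chr17:57782906-57783155) and SRSF6 at chr17:46119612-46122540 on the plus strand (window chr17:46119362-46119611). SRSF11 lies at chr6:142621904-142668107 on the minus strand (window chr6:142668108-142668357) and RBM34 at chr14:56087685-56108141 on the plus strand (window chr14:56087435-56087684). Capitals mark matches to GGGCGG (GC box) or TGACGTCA (cyclic AMP response element) on either strand.

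RBM38: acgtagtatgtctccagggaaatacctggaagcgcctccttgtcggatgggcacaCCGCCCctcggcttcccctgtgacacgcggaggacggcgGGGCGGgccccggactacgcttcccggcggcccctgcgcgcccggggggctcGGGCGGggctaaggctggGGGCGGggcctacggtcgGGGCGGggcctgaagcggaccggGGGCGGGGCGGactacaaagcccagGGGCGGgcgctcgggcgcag
SRSF6: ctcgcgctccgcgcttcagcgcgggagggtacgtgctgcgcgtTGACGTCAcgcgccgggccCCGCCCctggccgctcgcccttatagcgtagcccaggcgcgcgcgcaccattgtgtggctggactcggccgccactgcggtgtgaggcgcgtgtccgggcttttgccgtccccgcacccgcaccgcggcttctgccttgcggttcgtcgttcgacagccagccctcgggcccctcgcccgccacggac
SRSF11: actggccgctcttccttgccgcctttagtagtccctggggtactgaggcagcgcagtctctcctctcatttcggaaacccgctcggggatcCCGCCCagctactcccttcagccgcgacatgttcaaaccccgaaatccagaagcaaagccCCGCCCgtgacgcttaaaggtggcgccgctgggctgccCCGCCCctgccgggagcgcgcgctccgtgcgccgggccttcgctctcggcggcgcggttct
RBM34: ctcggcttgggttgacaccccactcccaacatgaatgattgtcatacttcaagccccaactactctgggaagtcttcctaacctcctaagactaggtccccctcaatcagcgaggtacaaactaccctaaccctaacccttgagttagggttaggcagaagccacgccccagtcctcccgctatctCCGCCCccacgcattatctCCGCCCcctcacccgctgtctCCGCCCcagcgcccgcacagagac

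All 4 windows hold GGGCGG, as did 56.9% of the 58 member windows matched to RefSeq and 56.3% of those of 11988 tested genes. TGACGTCA stands in the SRSF6 window and in 3.45% of member windows, against 2.06% of all. CCAAT on either strand, absent from these 4 windows, was found in 48.3% of member windows and 32.2% of all. TATAAA was found in 5.17% and 6.75%, CCGGAAG in 13.8% and 10.4%, and CACGTG in 6.90% and 7.47%. The 4 windows were picked, and neither RBM26 nor HNRNPL, also without overlap between the 6 and the 13 libraries, had a GGGCGG match in its window. These letter matches are descriptions of the windows and not binding sites.

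Among the SR genes, SRSF11, an SR-related protein that contacts U2AF and U1 components, stood out. It was at 43.1, 53.9, 46.9, 42.2 and 51.2 CPM in DOX, at 45.7, 48.1, 44.4, 51.3 and 45.8 CPM in MYO, at 51.2, 49.9 and 50.8 CPM in RemoLV, at 76.7, 84.4 and 71.3 CPM in Hyper and at 82.3, 80.4 and 83.2 CPM in Control. All 6 Hyper and Control libraries lay above all 13 others. The log2 fold change was 0.72 ± 0.06 (SE; edgeR adjusted p = 2.9e-08), and it stayed above 0 under each scaling tried (0.35 with the library total). Against Control alone, SRSF11 was lower in DOX (log2 fold change -0.79), MYO (-0.80) and RemoLV (-0.69). With table names, where the libraries labelled RemoLV serve as Control, it was not called in DOX (-0.13) or MYO (-0.07), and the RemoLV value turned to 0.69.

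SRSF6, a general SR protein that binds exonic enhancers, moved the other way. It was at 129, 135, 104, 131 and 98.7 CPM in DOX, at 103, 99.8, 98.0, 127 and 127 CPM in MYO, at 145, 154 and 167 CPM in RemoLV, at 96.8, 97.4 and 107 CPM in Hyper and at 72.9, 115 and 78.7 CPM in Control. RemoLV held the 3 highest values and Control the 2 lowest, and the 6 and the 13 libraries overlapped. The log2 fold change of the 6 against the 13 was -0.43 ± 0.10 (SE; edgeR adjusted p = 0.00165). SRSF2, whose mutations alter exon choice in blood cells, was 120 to 153 CPM (median 131) in the 6 and 143 to 204 CPM (median 167) in the 13 libraries, a log2 fold change of -0.34 ± 0.09 (edgeR adjusted p = 0.00283). The ranges of SRSF2 overlapped. The general SR proteins SRSF1, SRSF3, SRSF5 and SRSF7 did not pass, with log2 fold changes of 0.09 (95% interval -0.032 to 0.214), 0.22 (-0.046 to 0.484), 0.17 (-0.035 to 0.375) and 0.06 (-0.134 to 0.255).

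Among the hnRNP genes, HNRNPL, which binds CA repeats and represses exons, was the only one called lower. It was at 11.8, 10.01, 7.999, 7.70 and 8.24 CPM in DOX, at 10.1, 9.42, 8.82, 9.96 and 7.87 CPM in MYO, at 8.66, 6.204 and 7.31 CPM in RemoLV, at 4.33, 2.94 and 5.16 CPM in Hyper and at 5.97, 5.23 and 3.88 CPM in Control. The 6 Hyper and Control libraries all lay below the 13 others. The log2 fold change was -0.90 ± 0.14 (SE; edgeR adjusted p = 3.95e-05). Its paralog HNRNPLL did not pass, at 21.8 to 32.3 CPM in the 6 and 16.7 to 26.7 CPM in the 13 libraries.

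The 6 hnRNP genes called higher had log2 fold changes of 0.24 to 0.37 with TMM. Of these, HNRNPH2 lost its call in 13 of the 19 fits that left out 1 library, and HNRNPA1 in 3 of them. With the library total they lay between -0.15 and -0.004, above the median of all genes on that scale, -0.395. HNRNPC, which keeps cryptic exons out of mRNA, was 149 to 187 CPM (median 169) in the 6 and 114 to 152 CPM (median 137) in the 13 libraries, a log2 fold change of 0.37 ± 0.06 (edgeR adjusted p = 2.58e-05) with TMM and of -0.004 with the library total. HNRNPD, a regulator of AU-rich mRNA decay, had 0.33 and -0.03, HNRNPA3 0.33 and -0.05, HNRNPH3 0.31 and -0.08, HNRNPA1 0.25 and -0.11, and HNRNPH2 0.24 and -0.15. HNRNPA2B1, HNRNPK, HNRNPU, HNRNPDL and HNRNPH1 did not pass, with log2 fold changes of 0.14, -0.16, -0.07, 0.20 and 0.05. The abundant hnRNPs therefore shifted by less than the lower-expressed HNRNPL.

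RBM38, a p53-induced regulator of mRNA stability and of muscle splicing, showed the largest difference of any member. It was at 158, 95.5, 85.5, 77.1 and 189 CPM in DOX, at 136, 111, 160, 120 and 132 CPM in MYO, at 119, 92.8 and 107 CPM in RemoLV, at 46.0, 53.3 and 49.3 CPM in Hyper and at 37.7, 38.7 and 35.9 CPM in Control. The lowest of the 13 libraries, at 77.1 CPM in DOX, lay above the highest of the 6, at 53.3 CPM in Hyper. The log2 fold change of the 6 against the 13 was -1.47 ± 0.17 (SE; edgeR adjusted p = 1.34e-06), and the levels were 3.23, 3.52 and 2.84 times those of Control in DOX, MYO and RemoLV. The contrast with Control depends on the naming: with table names, RBM38 was not called in DOX (log2 fold change 0.05) or MYO (0.42), and HNRNPL was not called either (0.37 and 0.26).

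RBM24, the paralog of RBM38 and a splicing regulator needed in heart muscle, did not share this pattern. It was at 192, 103, 79.5, 70.7 and 76.1 CPM in DOX, at 75.2, 80.02, 88.7, 80.1 and 77.8 CPM in MYO, at 62.8, 61.9 and 76.6 CPM in RemoLV, at 46.5, 49.1 and 50.02 CPM in Hyper and at 141, 53.3 and 120 CPM in Control. DOX replicate 1 and Control replicates 1 and 3 were high, and Control replicate 2 was close to Hyper. The log2 fold change of the 6 against the 13 was -0.21 (95% interval -0.605 to 0.186). DOX replicate 1 also had 6459 CPM summed over 10 immediate-early genes, against 244 to 880 CPM in the other libraries, and the part of this in the RBM24 level was not tested.

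RBM20 was spread in the same way within Control. It was at 109, 117, 88.1, 83.5 and 103 CPM in DOX, at 133, 151, 109, 80.9 and 81.5 CPM in MYO, at 67.4, 57.9 and 76.0 CPM in RemoLV, at 87.3, 65.9 and 59.8 CPM in Hyper and at 151, 79.2 and 157 CPM in Control. Control replicates 1 and 3 exceeded every Hyper and RemoLV library, and Control replicate 2 lay below the highest Hyper library. RBM20 was lower in RemoLV than in Control (log2 fold change -0.94 ± 0.26, edgeR adjusted p = 0.00595) and than in DOX and MYO (-0.65 ± 0.21, edgeR adjusted p = 0.0256), with 0.08 in the 6 against the 13. With table names, both differences of RemoLV turned, to 0.94 and 0.29.

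The exosome adaptors RBM7, RBM26 and RBM27 link nuclear RNAs to the exosome for decay, RBM7 in the NEXT complex and the other two beside MTR4 and ZFC3H1. All 3 were called higher in the 6 libraries with TMM, although RBM7 turned to -0.02 with the library total. RBM26 was at 34.6, 27.4, 28.2, 27.7 and 30.4 CPM in DOX, at 26.5, 26.4, 26.1, 22.4 and 27.7 CPM in MYO, at 22.5, 25.0 and 22.4 CPM in RemoLV, at 64.3, 55.8 and 42.5 CPM in Hyper and at 56.7, 60.8 and 56.6 CPM in Control. The groups did not overlap, with a log2 fold change of 1.10 ± 0.08 (SE; edgeR adjusted p = 3.98e-09), a 2.15-fold difference. RBM27 was 9.99 to 25.9 CPM (median 11.4) in the 6 and 5.71 to 10.9 CPM (median 7.34) in the 13, a log2 fold change of 0.91 ± 0.15 (edgeR adjusted p = 7.89e-05). Control replicates 1 and 3, at 17.5 and 25.9 CPM, held its 2 highest values.

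RBM34, a nucleolar protein related to a yeast ribosome assembly factor, was at 40.6, 50.1, 42.5, 42.9 and 48.0 CPM in DOX, at 45.7, 42.6, 44.9, 43.7 and 42.8 CPM in MYO, at 55.1, 60.6 and 55.5 CPM in RemoLV, at 82.6, 94.2 and 76.1 CPM in Hyper and at 69.6, 90.3 and 78.2 CPM in Control. The 6 libraries lay above the 13, with RemoLV in between. Its log2 fold change was 0.76 ± 0.07 (SE; edgeR adjusted p = 4.12e-08), and RBM34 was also higher in RemoLV than in DOX and MYO (0.36 ± 0.09, edgeR adjusted p = 0.0035). RBM28, of the same nucleolar group, had 0.26 ± 0.09 (edgeR adjusted p = 0.0225), which turned with the library total, and RBM19 did not pass (0.10).

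RBM8A, the Y14 subunit of the exon junction complex, was 77.9 to 94.7 CPM in the 6 and 50.3 to 68.9 CPM in the 13 libraries, without overlap (log2 fold change 0.47 ± 0.07, edgeR adjusted p = 1.55e-05). RBM41 and RBM48, both tied to the minor spliceosome, had log2 fold changes of 0.48 ± 0.09 and 0.61 ± 0.15. RBM18, a protein of little known function, had 0.64 ± 0.08. RBM8A, RBM41, RBM48 and RBM18 stayed above 0 under each scaling tried, but with the library total RBM8A, RBM41 and RBM48 were no longer called, nor were RBM6 and RBM15. Of the 26 calls, 12 were shared with that scaling. RBM10, RBM25 and RBM3, the last induced by cold, did not pass, with -0.16, -0.02 and 0.39, and the interval of RBM3 (0.038 to 0.737) was wide.

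Over all members, 7 had CPM ranges that did not overlap between the 6 and the 13 libraries, where 9.56% of all tested genes did not. SRSF11, RBM26, RBM34, RBM6 and RBM8A lay above, and RBM38 and HNRNPL below. The RemoLV libraries, with their atrial genes, took part in these ranges. Without DOX replicate 1, which stood apart in immediate-early genes, 33 members passed, all 26 among them, and 53.7% of all genes. With the RemoLV group left out of the contrast, 31 members passed, 22 of them among the 26, and 50.6% of all genes. HNRNPH2, HNRNPH3, RBM28 and 1 RBM23 gene model were lost.

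**Figure D3:**
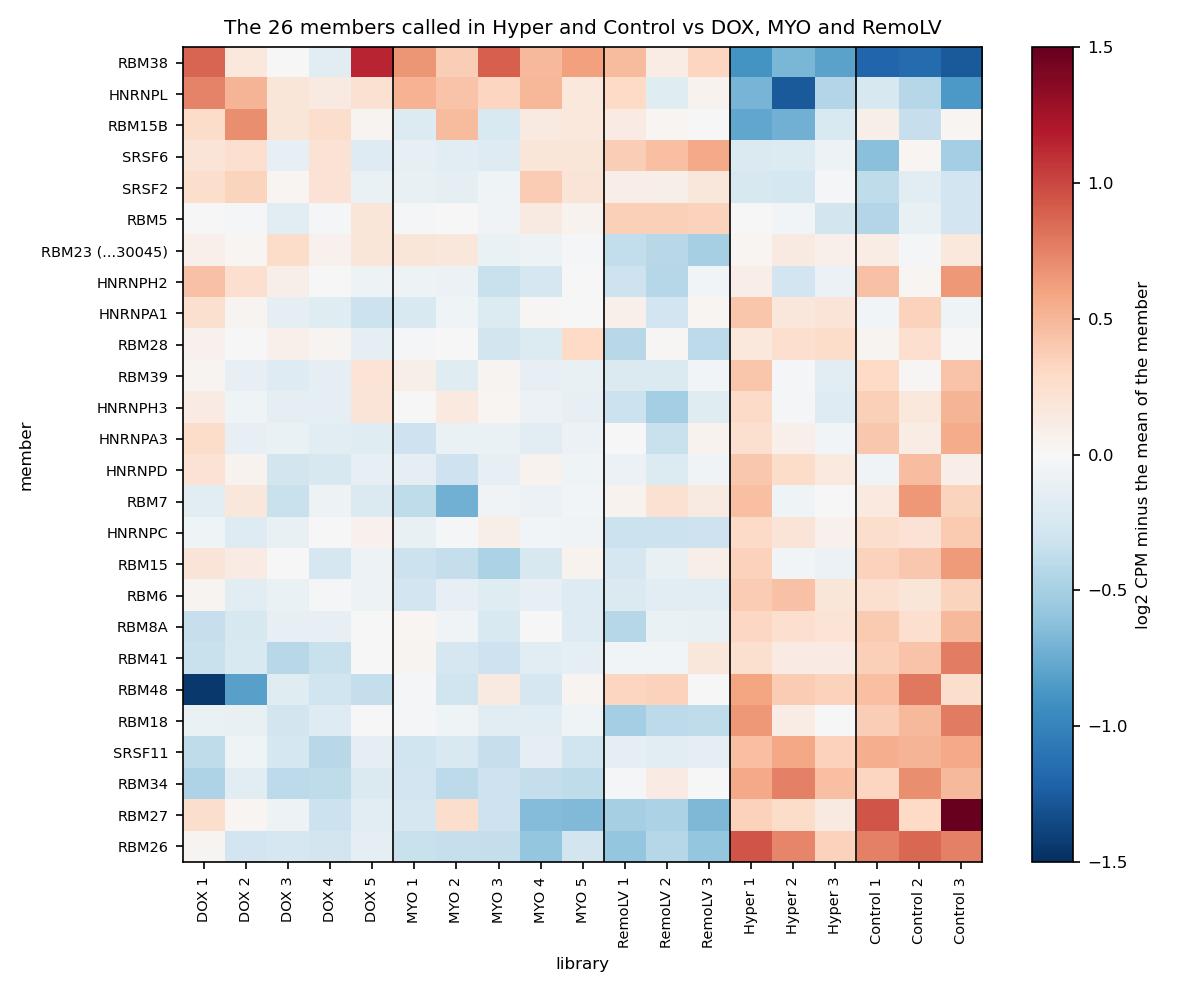
Log2 CPM of the 26 called members (rows) in the 19 libraries (columns), centred on the mean of each member, red high and blue low. RBM38 and HNRNPL are lowest in the 6 Hyper and Control libraries at the right, and SRSF11, RBM34 and RBM26 are highest there. The values rest on TMM scaling.

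**Figure D4:**
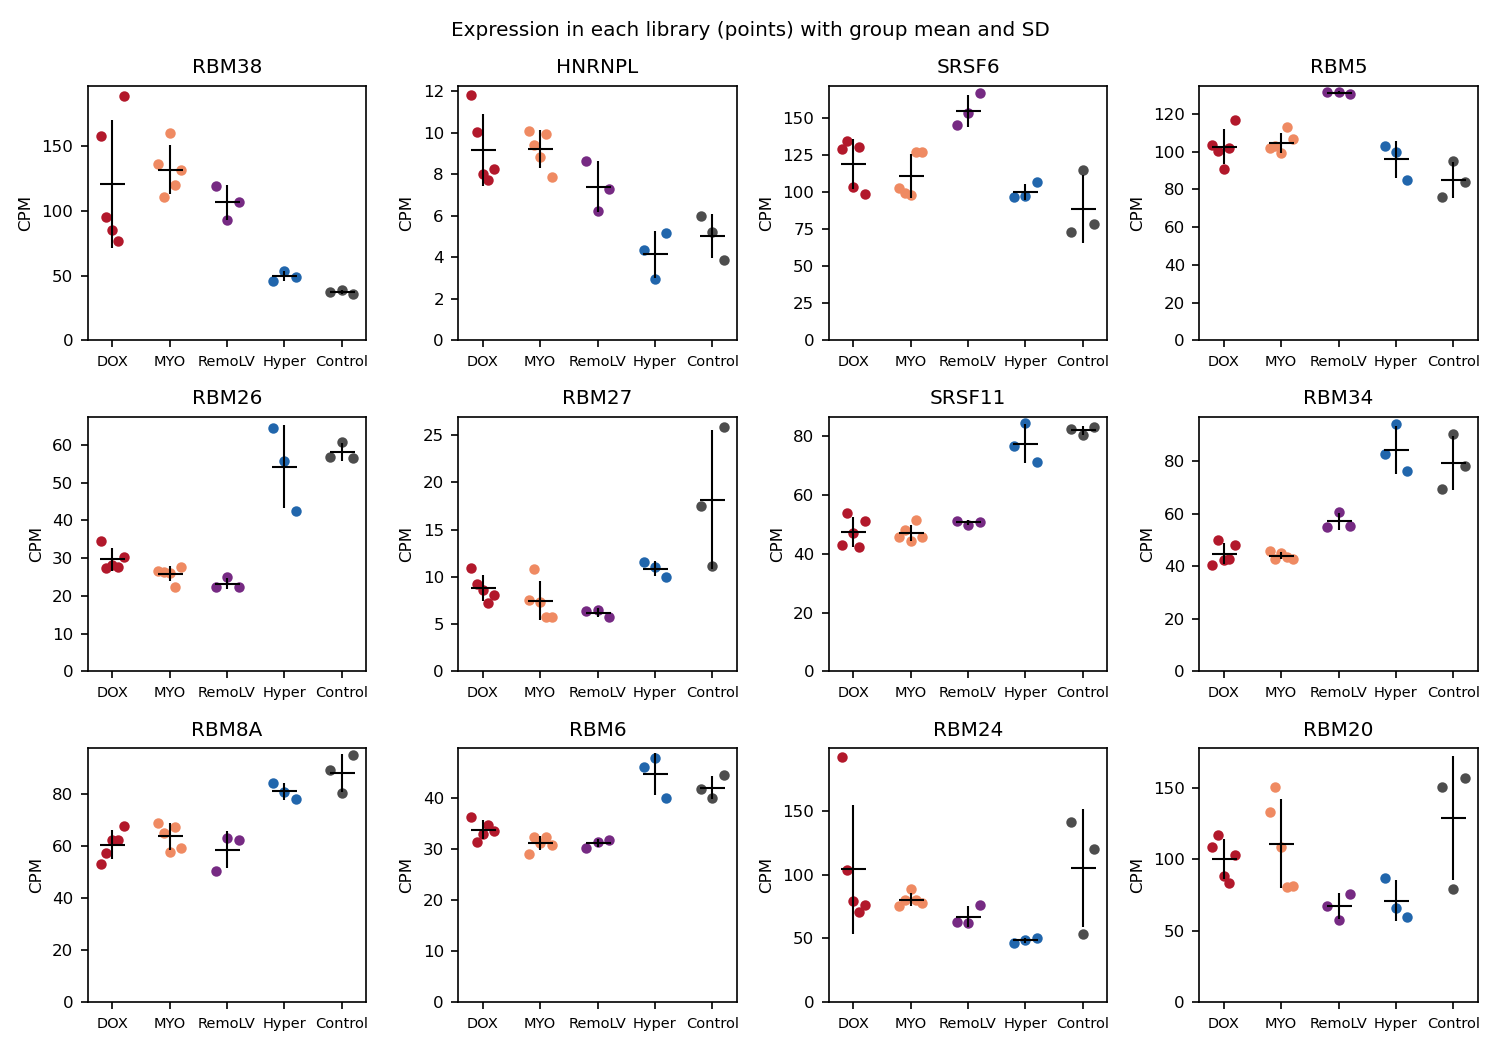
CPM (y axis) of 12 genes in each library (points) by group (x axis), with bars for the mean and SD. The RBM38 points of Hyper and Control reach no more than 53.3 CPM and those of the other groups start at 77.1 CPM, while RBM24 and RBM20 spread widely within Control.

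Ratios of related genes within a library do not depend on its scaling, and the pairs were picked after their values were seen, so no test is given. RBM5 and RBM6, tumour-suppressor-region splicing factors, lie next to each other on the plus strand, at chr13:32579780-32612716 and chr13:32444944-32569818, 9961 bases apart. RBM5 was 76.0 to 103 CPM in the 6 and 91.0 to 132 CPM in the 13 libraries, whereas RBM6 was 40.0 to 47.9 CPM and 29.0 to 36.3 CPM. The log2 ratio of RBM5 to RBM6 was 0.867 to 1.25 in the 6 and 1.46 to 2.12 in the 13 libraries, highest in RemoLV. RBM15 and RBM15B are both recruiters of the m6A writer, and the log2 ratio of RBM15B to RBM15 was -1.77 to -0.777 in the 6 and -0.720 to 0.188 in the 13 libraries. The ratios of RBM38 to RBM24, HNRNPL to HNRNPLL, RBM26 to RBM27 and HNRNPH1 to HNRNPH2 overlapped. The first 2 pairs did not overlap between the library sets. Their genes had already been called in opposite directions in the 6 against the 13. The log2 fold changes were -0.31 for RBM5, 0.44 for RBM6, -0.46 for RBM15B and 0.39 for RBM15. Their ratios are therefore no separate support, and the share of other gene pairs without overlap was not counted.

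**Figure D5:**
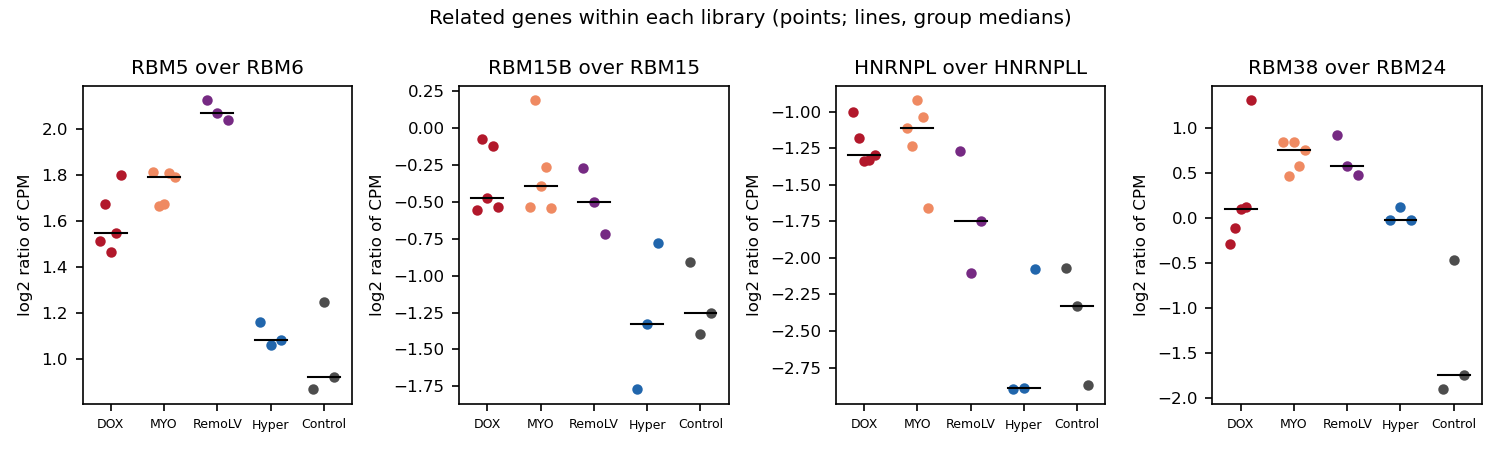
Log2 ratio of CPM (y axis) of 4 pairs of related genes in each library (points) by group (x axis), with lines for group medians. The RBM5 to RBM6 ratio of every Hyper and Control library is at most 1.25 and that of every other library at least 1.46.

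The next question was how each treatment group compared with Control, which DOX, MYO and RemoLV share. In DOX, 22 members (37.3%) were called, 7 higher and 15 lower, against 41.9% of all genes (20.8% higher, 21.1% lower). Past a log2 of 1 in size there were 3, against 12.3%. With scaling to the library total, which moved the median of all genes by 0.416, the split was 25 higher and 5 lower, against 41.2% of all genes higher and 5.17% lower. Past that size were RBM38, RBM48 and RBM27 (-1.04), and RBM26 (-0.97) and RBM34 (-0.83) followed among the RBM genes. The members named for this comparison, the 2 largest called of each family, were RBM38 (log2 fold change 1.69 ± 0.24, edgeR adjusted p = 4.9e-05), RBM48 (-1.07 ± 0.22, edgeR adjusted p = 0.000784), HNRNPL (0.86 ± 0.20, edgeR adjusted p = 0.00266), SRSF11 (-0.79 ± 0.09), and SRSF5 (-0.48 ± 0.15). The second hnRNP gene, HNRNPA3, at -0.42 ± 0.12, turned to 0.02 with the library total, and HNRNPC, HNRNPH3 and RBM6 also turned above 0. With table names, where 29.4% of all genes were called, 12 members were called, 7 higher and 5 lower, of which 6 were among the 22, and 11 of the 22 turned sign. RBM27 then stood at 0.49 and RBM26 at 0.31, while RBM48 (-0.70), RBM34 (-0.36) and SRSF5 (-0.56) were still called lower. Without DOX replicate 1, 22 were called, 4 higher and 18 lower, against 41.4% of all genes (19.9% higher, 21.6% lower).

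In MYO, 22 members were called, 5 higher and 17 lower, against 42.2% of all genes (20.6% higher, 21.6% lower). Past a log2 of 1 in size there were 3, against 12.2%. The split became 22 higher and 4 lower with the library total, where the median of all genes moved by 0.423 and 40.4% of all genes were higher and 5.51% lower. It was 6 higher and 3 lower with table names, where 14.6% of all genes were higher and 14.2% lower. The 2 largest called of each family were RBM38 (1.82 ± 0.24, edgeR adjusted p = 2.84e-05), RBM27 (-1.27 ± 0.23, edgeR adjusted p = 0.000262), HNRNPL (0.88 ± 0.20), SRSF11 (-0.80 ± 0.09), HNRNPH2 (-0.54 ± 0.14) and SRSF3 (-0.51 ± 0.20, edgeR adjusted p = 0.0445). Further RBM genes lay between, RBM26 at -1.17, RBM34 at -0.85, RBM15 at -0.73, RBM41 at -0.69, RBM18 at -0.65, RBM7 at -0.63 and RBM48 at -0.59. HNRNPH3, HNRNPA2B1 and HNRNPC turned above 0 with the library total. With table names 5 of the 22 were still called and 12 of the 22 took the opposite sign, among them RBM27 (0.28), RBM26 (0.19), RBM18 (0.34), HNRNPH2 (0.11) and SRSF3 (0.10). RBM5 and RBM10, which regulate apoptosis genes by splicing, were called higher in both drug groups with the file labels (0.27 and 0.37 in DOX, 0.30 and 0.31 in MYO). With table names, RBM5 turned to -0.40 in DOX and -0.29 in MYO, and RBM10 was not called.

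The libraries labelled RemoLV had 27 members called (45.8%), 5 higher and 22 lower than Control, against 46.9% of all genes (23.0% higher, 23.9% lower). Past a log2 of 1 in size there were 3, against 20.8%. The split became 19 higher and 3 lower with the library total, against 45.4% and 7.58% of all genes, and 22 higher and 5 lower with table names, against 23.9% and 23.1%, where the same libraries exchange roles. Of the 22 called lower, 11 turned above 0 with the library total, to at most 0.16, while the median of all genes was 0.519 on that scale. The 2 largest called of each family were RBM27 (-1.54 ± 0.26, edgeR adjusted p = 0.000131), RBM38 (1.51 ± 0.26, edgeR adjusted p = 0.000155), SRSF6 (0.80 ± 0.16, edgeR adjusted p = 0.000626), SRSF11 (-0.69 ± 0.10), HNRNPH3 (-0.68 ± 0.14) and HNRNPH2 (-0.65 ± 0.16), and each of these signs turns with table names. RBM26 (-1.32), RBM18 (-0.98) and RBM4 (-0.84) were also larger than the SR and hnRNP genes named. These libraries also had 9575 to 12830 CPM summed over 7 atrial cardiomyocyte genes, against 125 to 2445 CPM in the other groups, and 11030 to 12650 CPM summed over 8 fibroblast genes, against 1611 to 7291 CPM. Their part in the result was not tested.

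Hyper against Control, which lie within one stretch of library numbers, gave no member called by edgeR, and 11 members with an unadjusted p under 0.05, against 0.0% and 17.7% of all genes. DESeq2 called 1 member, RBM24, and 266 of the 13552 genes tested. RBM24 had the largest difference (log2 fold change -1.11, 95% interval -1.76 to -0.461, edgeR adjusted p = 0.141), followed by RBM47 (-0.90), a member of low level (0.102 CPM per kb in Control), RBM27 (-0.74), RBM15B (-0.49) and HNRNPH2 (-0.48). The count of 0 rested on single libraries. Without Control replicate 2, 8 members passed, among them RBM24 (-1.43), RBM27 and SRSF1, where 18.1% of all genes passed. Without Hyper replicate 1, 4 passed (RBM47, SRSF1, HNRNPR and RBM18), against 5.63% of all genes. With table names, where the files labelled Control are called RemoLV, 19 members were called, 13 higher and 6 lower, against 35.6% of all genes.

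DOX against MYO, also within one stretch of numbers, gave no member called by edgeR or DESeq2 and 3 with an unadjusted p under 0.05, against 0.0% and 6.94% of all genes. RBM48 (-0.49, 95% interval -0.867 to -0.103), HNRNPH2 (0.30) and RBM15 (0.27) were those 3. A value that missed the threshold does not show that free and liposomal doxorubicin act alike on these genes.

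Finally, RemoLV against DOX and MYO gave 14 members called (23.7%), 6 higher and 8 lower, against 33.5% of all genes (16.8% higher, 16.6% lower). None passed a log2 of 1 in size, against 12.0%. All 5 hnRNP genes called were lower in RemoLV, with HNRNPM at -0.46 ± 0.08 (edgeR adjusted p = 0.000265) and HNRNPH3 at -0.33 ± 0.11, and these signs held under each scaling tried. SRSF5 (0.43 ± 0.14) and SRSF6 (0.43 ± 0.13) were higher, as were RBM5 (0.34 ± 0.08) and RBM48 (0.55 ± 0.19). The RBM23 gene model ENSSSCG00000030045 was the lowest of the members, at -0.51 ± 0.09 (edgeR adjusted p = 0.000185), and whether it shares reads with the second RBM23 model was not measured. With table names, 25 members were called, 18 higher and 7 lower, against 47.0% of all genes, and HNRNPM was not called (-0.10). SRSF6 (-0.37), RBM5 (-0.28), HNRNPH3 (0.35), RBM18 (0.67) and HNRNPC (0.33) were then called with the opposite sign. The RBM23 model named above turned to 0.0036 and was not called. With scaling to the library total 8 members were called, 6 higher and 2 lower, against 28.4% of all genes. Leaving out RemoLV replicate 1, 2 or 3 left 9, 8 or 9 members, against 25.2%, 24.6% and 23.3% of all genes.

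Other splicing genes were counted in 7 lists in Hyper and Control against the rest. Of the core U1 and U2 genes, 12 of 21 were higher and 2 lower, and of the tri-snRNP and catalytic genes 6 of 17 were higher and none lower. Of the tissue splicing regulators, 10 of 20 were higher and 3 lower, of related RNA-binding proteins 7 of 18 and 2, of SR-like activators 6 of 16 and 4, of SR protein kinases 2 of 9 and 1, and of exon junction and decay genes 4 of 14 and 5. In all genes tested, 26.2% were higher and 26.5% lower with the same TMM scaling. With scaling to the library total, where 7.7% of all genes tested were higher and 50.8% lower, the counts of each list moved down with those of genes in general. The core U1 and U2 genes then had 5 higher and 9 lower, the tri-snRNP and catalytic genes 0 and 7, and the tissue splicing regulators 4 and 9. The related RNA-binding proteins had 3 higher and 10 lower, the SR-like activators 3 and 8, the SR protein kinases 0 and 6, and the exon junction and decay genes 1 and 8. On that scale the share called higher was above that of all genes in the core U1 and U2 list (23.8%) and tissue regulators (20.0%). So it was in the SR-like activators (18.8%) and the related RNA-binding proteins (16.7%). The share called lower was above that of all genes in the SR protein kinases (66.7%) and the exon junction and decay genes (57.1%). The related RNA-binding proteins were above it on this side as well (55.6%). These shares are descriptions with no test.

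The largest called gene of each list varied in direction. MBNL3, a muscleblind splicing regulator, was 5.50 to 11.4 CPM in the 6 and 1.19 to 3.16 CPM in the 13 libraries (log2 fold change 2.18 ± 0.19). SON, a nuclear speckle scaffold, was 372 to 480 CPM and 142 to 192 CPM (1.35 ± 0.07), and SNRNP70, a U1 protein, was 131 to 217 CPM and 278 to 368 CPM (-0.83 ± 0.10). None of these 3 genes overlapped between the 6 and the 13 libraries, where 9.56% of all tested genes did not. They were picked by the size of this same difference. RBMX2, MAGOHB, SLU7 and SRPK2 had log2 fold changes of 0.91, 0.76, 0.60 and 0.50. The 6 higher genes kept their sign with scaling to the library total, where MBNL3 was at 1.80, SON at 0.97 and SRPK2, the smallest, at 0.11, and SNRNP70 stood at -1.18.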

How the data were processed

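LV RNA of 19 pigs was sequenced after poly(A) enrichment with a strand-marking kit. Per the labels and the methods, STAR was used by the authors to align read pairs to Sscrofa11.1, and HTSeq 0.11.1 (union mode, reverse strand) to assign them to Ensembl genes. They deposited raw counts, 1 file per library, which were the values tested here. A second file deposited by the authors lists 14744 genes with log2-scale expression, used here for symbols and for matching its columns to the count files, and with fold changes and adjusted p-values of their own comparisons, not used.

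Counts were scaled by TMM and filtered by filterByExpr in edgeR 4.0.16 (R 4.3.3), leaving 13552 genes. The quasi-likelihood test was fitted in 1 model of 5 groups, with Benjamini-Hochberg adjustment over all genes and calls at 0.05. Each pig gave 1 library, and p-values measure the spread between pigs. The library totals, 9527710 to 20370209, set the precision of low genes, and the depth is raw counts without molecular identifiers. Members and lists were chosen with earlier results of these data known. Members named with values were the 3 called members of each family with the largest difference in Hyper and Control against the rest, the 2 largest in the other comparisons (mean log2 CPM of at least 2), members with well-known roles, and the largest called gene of each other list. RBM6, RBM8A, RBM15, RBM15B, RBM18, RBM34, RBM41 and other members outside this rule were named after their values were seen. Alternatives were DESeq2 1.42.0, other scalings, filters, a block, leaving out libraries, table names, and a fold threshold of 1. The procedure was tested on simulated data. Sequences and positions came from RefSeq.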

Additional observations from a re-analysis of the deposited data

Results flagged for a closer look

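Of 64 groups of 5 libraries tested for an extreme value (DOX and MYO, for each named member), 4 held a library far from the others, where chance gives about 1 in 20. DOX replicate 1 was far above the other DOX libraries in 3 members: HNRNPA3 was 113.5 CPM against 82.8 to 87.5 CPM, SRSF3 132.1 CPM against 60.3 to 75.7 CPM, and RBM24 191.7 CPM against 70.7 to 103 CPM. This library also held 6459 CPM of summed immediate-early genes, and the part of this in the 3 values was not tested. RBM3, the cold-inducible member, was 66.57 CPM in MYO replicate 4 against 40.1 to 47.2 CPM in the other MYO libraries.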

How the results depend on the processing

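Counts of members called stayed within 1.5 times of their value under DESeq2, size factors of DESeq2, TMM without mitochondrial and sarcomere genes, no filter and at least 10 counts in every library, except Hyper vs Control with DESeq2 (1). With table names, DOX vs Control had 12, MYO vs Control 9, Hyper vs Control 19 and RemoLV vs DOX and MYO 25. With a log2 fold change of 1 or more in size, DOX, MYO and RemoLV vs Control had 3 each, Hyper and Control vs the rest 2 and RemoLV vs DOX and MYO 0. With library size alone, RemoLV vs DOX and MYO had 8. Leaving out 1 library gave 15 to 24 (DOX vs Control), 15 to 28 (MYO), 19 to 29 (RemoLV), 0 to 8 (Hyper), 25 to 33 (Hyper and Control vs the rest), 0 to 0 (DOX vs MYO) and 8 to 16 (RemoLV vs DOX and MYO). The share of all genes called in these fits was 27.4 to 44.4% (DOX vs Control), 27.9 to 45.4% (MYO) and 35.5 to 52.4% (RemoLV). It was 0.0 to 18.1% (Hyper), 46.0 to 55.2% (Hyper and Control vs the rest) and 23.3 to 37.5% (RemoLV vs DOX and MYO). With a replicate block, the counts were 18, 16, 26, 0, 23, 0 and 11 in the order DOX, MYO, RemoLV and Hyper vs Control, Hyper and Control vs the rest, DOX vs MYO, and RemoLV vs DOX and MYO. In the same order, 35.2, 35.3, 44.7, 0.0, 47.6, 0.0 and 29.1% of all genes were called with the block. The numbers do not pair pigs (correlations of same-numbered deviations -0.246 to 0.242, 4 of 19 libraries closest to their own number). Fitting only the groups compared could not apply to Hyper and Control vs the rest.

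With library size alone, which moves genes in general, 10 called members turned sign in the 6 against the 13, 4 in DOX, 3 in MYO and 11 in RemoLV vs Control, and 0 in RemoLV vs DOX and MYO. For members named by the rule in a comparison, signs turned as follows. With library size alone, the 6 against the 13 gave -0.0045 for HNRNPC, -0.0277 for HNRNPD, -0.0534 for HNRNPA3, -0.147 for HNRNPH2, -0.075 for HNRNPH3, -0.205 for RBM23 (ENSSSCG00000030045), -0.122 for RBM39 and -0.11 for HNRNPA1, and DOX vs Control 0.0217 for HNRNPA3. Without RemoLV in the contrast, RBM23 gave -0.0005. With table names, 11 of the 22 called members turned in DOX, 12 of the 22 in MYO and all 27 in RemoLV vs Control, and 6 of the 14 in RemoLV vs DOX and MYO. RemoLV vs Control gave 0.69 for SRSF11, -0.80 for SRSF6, -1.51 for RBM38, 1.54 for RBM27, 0.65 for HNRNPH2, 0.68 for HNRNPH3 and 0.94 for RBM20. MYO vs Control gave 0.28 for RBM27, 0.10 for SRSF3 and 0.11 for HNRNPH2, DOX vs Control 0.0134 for HNRNPA3, and RemoLV vs DOX and MYO -0.37 for SRSF6, 0.35 for HNRNPH3, 0.0036 for RBM23 and 0.29 for RBM20. Library size alone leaves in the mitochondrial share, and table names exchange libraries. The part of the mitochondrial share in the turns was not tested, nor was any other cause. Of 1221 gene values under alternatives, 1120 kept sign and call, 76 lost the call and 25 turned sign. Of the 1221, 817 came from fits without 1 library, which share most of the data. Library size alone turned 9 of 43 values and took the call from 9 more. Table names turned 15 of 43 and took the call from 7 more.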
